A study of Mus musculus with 12 samples.

Results

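The comparison described here is that between the background precipitate and its input in hepatocytes that lack Cnot6l. It takes the 3 arrays of RNA precipitated with an antibody against CNOT6L from knockout hepatocytes (IP) and the 3 arrays of the matching input RNA, paired by the replicate number in their titles, 6 of the 12 arrays of the series. The cells were primary hepatocytes from 8-week-old male C57BL/6J mice of the Cnot6l knockout, with no further treatment named in the labels, and the other 6 arrays hold the same 2 fractions from wild-type mice of that strain, sex and age. Per the series text, an input portion and an IP portion were taken from each preparation of cells, and the knockout was the study's negative control. The titles call the replicates biological, but the labels do not say whether one is a single animal or a pool, nor how the allele was made, so the p-values measure only the spread between these preparations. Of 15780 named genes on the array, 9496 (60.2%) reached the mean level set for testing, 5.57 on the log2 scale over the 12 arrays.

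CNOT6L is one of the deadenylase subunits of the CCR4-NOT complex, which shortens poly(A) tails and so starts the decay of many mRNAs in the cytoplasm. In RNA immunoprecipitation followed by array hybridisation, an antibody collects a protein with the RNA bound to it, and the RNA is compared with the input. Where the protein is missing, what comes down is background: RNA that binds the beads, the tube or the antibody by itself, or any other protein the antibody takes. Comparing that background with its input shows which transcripts it holds in less than their share and which in about their share.

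The values are log2 signals with 1 value per gene and array, on each array's own scale, so a difference between IP and input is relative to the other transcripts of the same precipitate and not an amount of RNA. The array medians of the 6 knockout arrays lay between 6.31 and 6.42, while the values of an IP array spread less, with SDs of 2.19 to 2.37 against 2.54 to 2.61 in the inputs. Spiked-in poly-A control RNAs of bacteria were 4.27 to 5.41 higher in the knockout IP than in its input, and the hybridisation controls were 3.66 to 5.04 higher. The 3′ minus 5′ gap of the Gapdh control probe sets was 0.85 to 1.66 wider and that of Actb 1.38 to 1.62 wider. The same differences in wild type were, in that order, 4.01 to 5.27, 2.45 to 5.17, 0.85 to 1.95 and 1.38 to 1.91. Their part in the results that follow was not tested. Cnot6l itself, whose probes may lie outside the deleted part, read 9.12, 9.23 and 9.34 in knockout input and 9.29, 10.63 and 9.46 in knockout IP (0.56 ± 0.34, SE, adjusted p = 0.307), so it checks nothing about the labels.

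The background precipitate followed its input closely across genes, and more genes passed the test as lower than as higher. Over the 9496 genes, which are not independent replicates, mean IP and mean input signal had a Pearson correlation of 0.951 (Spearman 0.946). In limma with the preparation as a block, 501 genes (5.28% of those tested) were lower in IP and 69 (0.727%) were higher at a Benjamini-Hochberg adjusted p under 0.05. A further 4979 genes (52.4%) met the definition of kept used here: not called, with a 95% interval of the difference inside -1 and 1, that is, under 2-fold either way. The number kept was 3142 without preparation 3 and 2156 without the pairing. All 3 IP values lay below all 3 input values in 955 genes (10.1%) and above them in 504 (5.31%), and the difference reached 1 or more in every preparation downward in 142 genes (1.5%) and upward in 12 (0.126%). The median difference of all genes was -0.21, and 9 in 10 genes lay between -1.15 and 0.64. It was -0.20, -0.19 and -0.19 in the 3 preparations.

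The split between loss and gain leaned to loss, but the counts rest on the pairing, on the arrays fitted and on the scaling of the arrays. The spread was estimated from all 12 arrays, and a fit to the knockout arrays alone gave 8 lower and 0 higher genes. Leaving out 1 wild-type preparation gave 119 to 345 lower genes. Without the pairing limma called 0 genes in either direction, although 760 were lower and 282 higher at an unadjusted p under 0.05 (2115 and 544 with the pairing). With quantile normalization of the 12 arrays, which moved the median of all genes by 0.16 to -0.04, 30 genes were lower and 3 higher, and 79, 6 and 9 were lower when preparation 1, 2 or 3 of the knockout was left out. With no filter on dim genes the balance turned, to 733 lower and 1073 higher, so that 40.6% of the calls were losses against 87.9% above.

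The transcripts lost most are described gene by gene, and whether they share pathways was not tested. The rule for named genes took the 12 called genes with the largest difference, no overlap between the 3 IP and the 3 input values and one sign in every preparation. They fell by 5.43-fold to 11.6-fold in the knockout precipitate (log2 differences of -3.53 to -2.44, adjusted p = 0.00292 to 0.0272, limma).

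Net1, a guanine nucleotide exchange factor for RhoA, read 9.55, 10.35 and 10.71 in the knockout inputs and 5.34, 6.93 and 7.73 in the IPs of the same preparations. The difference was -3.53 ± 0.35 (n = 3 pairs, SE from the limma fit to all 12 arrays, adjusted p = 0.00953, limma). Snrpd3, one of the Sm proteins at the core of the spliceosomal snRNPs, read 11.08, 11.76 and 10.36 in input and 7.24, 9.02 and 6.56 in IP, a fall of 11-fold (-3.46 ± 0.28, adjusted p = 0.00292). The highest IP value of Snrpd3 stayed below its lowest input value, and so did that of Net1. Rraga, the Rag GTPase that brings mTORC1 to the lysosome, read 9.84, 10.99 and 10.11 in input and 6.65, 8.25 and 6.42 in IP (-3.21 ± 0.25, adjusted p = 0.00292). Snrpd3 and Rraga passed in 13 of the 14 alternative fits, all but the one without pairing.

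Mex3d, an RNA-binding protein with KH domains, read 7.63, 6.81 and 7.95 in input and 5.0, 3.85 and 4.88 in IP (-2.89 ± 0.21, adjusted p = 0.00292), so that its IP signal was near the dim end of the array, where the 10th percentile of the IP arrays was 3.84 to 4.26. Cyp39a1, an oxysterol 7α-hydroxylase of bile acid synthesis, read 8.85, 7.17 and 9.57 in input and 5.82, 5.74 and 5.73 in IP (-2.76 ± 0.51, adjusted p = 0.0272). Its 3 IP values lay close to each other while its inputs were spread widely. Mta2, a subunit of the NuRD chromatin remodelling complex, read 9.72, 8.75 and 8.92 in input and 7.04, 5.89 and 6.40 in IP (-2.69 ± 0.34, adjusted p = 0.0155).

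The other 6 were Shc1, an adaptor of receptor tyrosine kinases (-2.63), Wdr89, a WD-repeat protein (-2.60), Polr3c, a subunit of RNA polymerase III (-2.54), Swi5, a factor of homologous recombination (-2.52), Qsox1, a secreted sulfhydryl oxidase (-2.50), and Enpp5, an ectonucleotide pyrophosphatase family member (-2.44). Their mean input signals lay between 6.86 and 11.13 and their mean IP signals between 4.26 and 8.61. Of the 12, Net1, Snrpd3, Rraga, Mex3d, Mta2, Wdr89, Polr3c and Enpp5 also passed after quantile normalization, and Cyp39a1, Shc1, Swi5 and Qsox1 did not (adjusted p = 0.051 to 0.078).

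**Figure D1:**
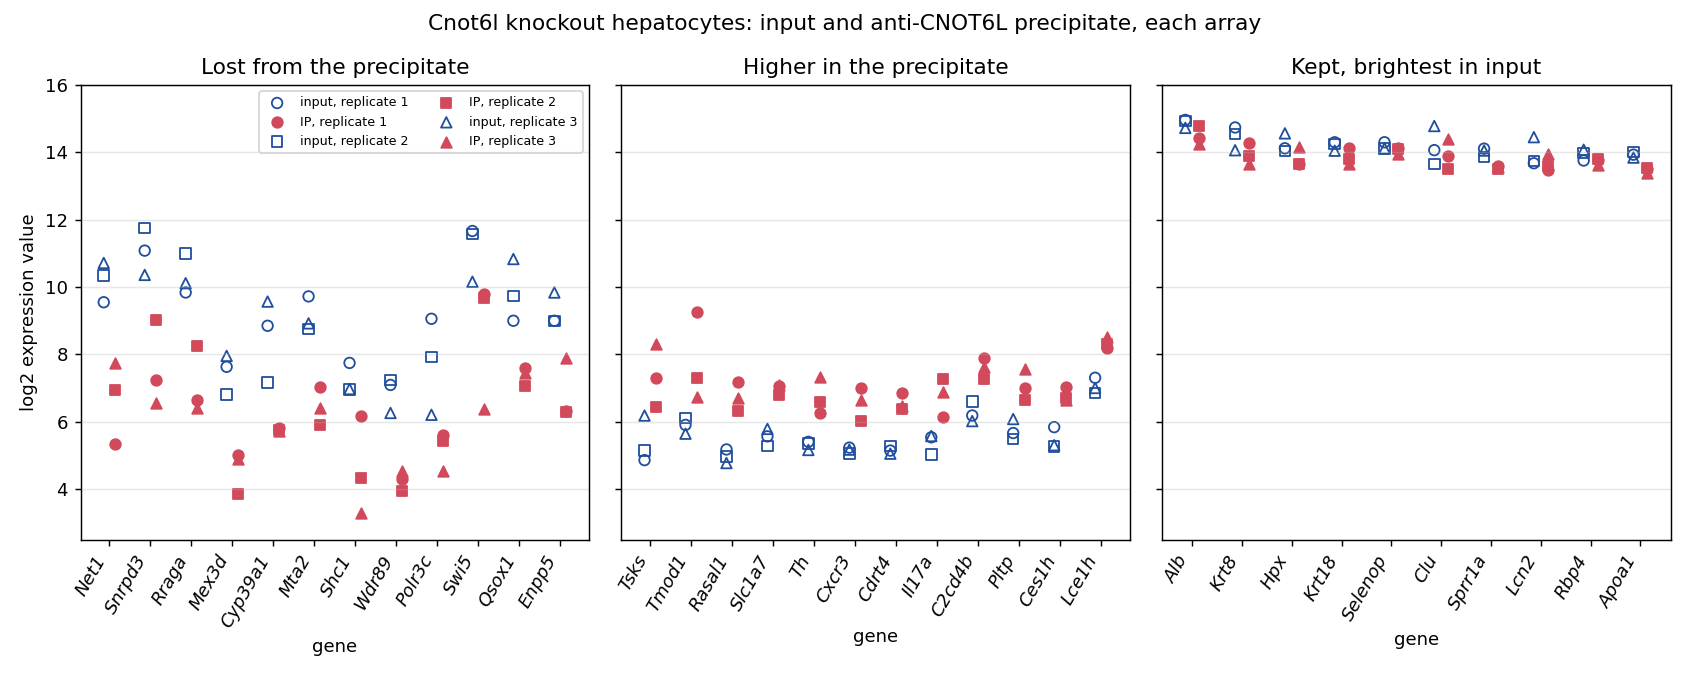
Each point is the log2 signal of 1 gene on 1 of the 6 knockout arrays, open blue for input and filled red for IP, with the marker shape giving the replicate number. In the left panel every IP value of the 12 lost genes lies below every input value, in the middle panel the 12 genes higher in IP start from input means of 4.97 to 7.05, and in the right panel the 10 kept genes with the largest input signals differ by -0.50 to -0.12.

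Of the 33 genes called under both scalings, 30 lower and 3 higher, several lie outside that rule's 12 and were picked for mention after their values were seen. Gjb1, the gap junction protein connexin 32 of hepatocytes, fell by 2.37 on the log2 scale and was called in 12 of the alternative fits. Rps6kb2, a ribosomal S6 kinase downstream of mTORC1 (-2.22), Fahd1, a mitochondrial oxaloacetate decarboxylase (-2.14), St3gal4, a sialyltransferase (-2.05), Wasf2, an activator of the Arp2/3 complex (-2.04), Kat5, the acetyltransferase Tip60 (-1.87), and Wipi1, an autophagy protein (-1.71), were lower as well. The 3 higher genes called under both were Rasal1, Snx22 (1.39) and Ces1h.

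The genes higher in the precipitate were dim in input. The 12 largest by the same rule rose by 2.45-fold to 3.86-fold, from mean input signals of 4.97 to 7.05. Tsks, a substrate of testis-specific kinases, read 4.86, 5.15 and 6.18 in input and 7.30, 6.43 and 8.31 in IP (1.95 ± 0.29, adjusted p = 0.0221). Tmod1, which caps the pointed ends of actin filaments, read 5.90, 6.11 and 5.64 in input and 9.27, 7.31 and 6.72 in IP (1.88 ± 0.43, adjusted p = 0.0433). The IP of preparation 1 stood well above the other 2 IPs of Tmod1, yet none of the IP values reached down to an input value. Rasal1, a Ras GTPase-activating protein, read 5.17, 4.96 and 4.77 in input and 7.19, 6.32 and 6.72 in IP (1.77 ± 0.21, adjusted p = 0.0125).

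Th, tyrosine hydroxylase of catecholamine synthesis (1.42), Cxcr3, a chemokine receptor of T cells (1.41), Il17a, a T-cell cytokine (1.38), and Lce1h, a late cornified envelope protein of skin (1.29), were also among these 12. So were Slc1a7, a glutamate transporter of neurons (1.43), Cdrt4 (1.40), C2cd4b (1.33), the phospholipid transfer protein Pltp (1.32) and the carboxylesterase Ces1h (1.32). Under quantile normalization Rasal1 and Ces1h still passed and the other 10 did not (adjusted p = 0.051 to 0.1). Both had input means below the level set for testing, in knockout (4.97 and 5.46) and in wild type (5.07 and 5.36). They were thus tested only through their IP arrays, which favoured a higher call in advance. Of all 69 higher genes, 36 had a mean knockout input below the level set for testing, and so were tested only because other arrays were brighter. Their median input signal was 5.54, against 8.18 for all genes tested and 9.03 for the 501 lower genes.

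The difference between precipitate and input followed the signal level. With genes split into 5 bins by their mean in wild-type input, arrays that are not part of the knockout comparison, the median difference was 0.21 in the dimmest bin and then -0.18, -0.31, -0.31 and -0.34. These arrays are not independent of the knockout inputs, with which they correlated by 0.983 to 0.990 at the same replicate number. In the dimmest bin 0.842% of genes were lower and 3.05% higher, and in the brightest 7.32% were lower and 0.0527% higher. The dimmest bin held 58 of the 69 higher genes. It began at a wild-type input of 4.88, below the level set for testing. Such genes were tested only because other arrays, which include the IP arrays, were brighter. The filter thus favoured higher values in that bin in advance, and its part in the median and the count was not tested. The 6284 genes below the filter had a median of 0.57. The slope of the IP signal on the wild-type input signal was 0.906 across genes, against 1.01 for the knockout input. The median lay below 0 in each preparation in the 4 brighter bins and was between 0.20 and 0.21 in the dimmest bin. An array signal compresses at the dim end and depends on the probe set, so the bins order signals and not transcript numbers.

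**Figure D2:**
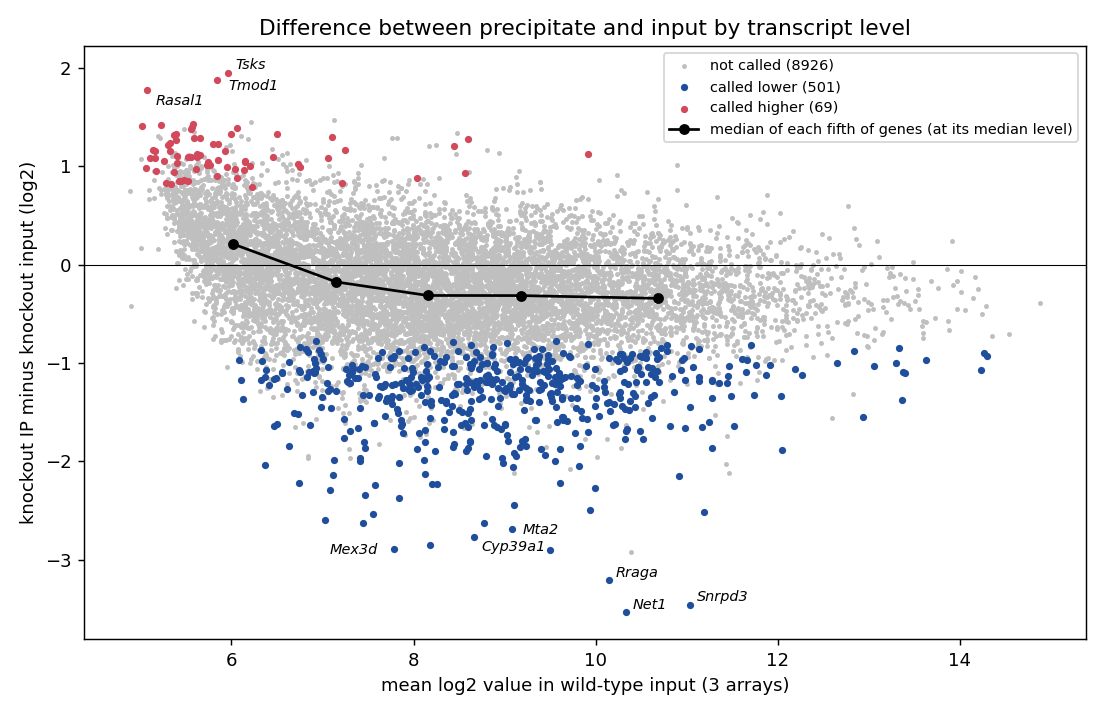
Each point is 1 of 9496 genes, placed by its mean log2 signal in wild-type input (x) and its knockout IP minus knockout input difference (y, log2), in blue where called lower, red where called higher and grey otherwise. The black line joins the medians of the 5 bins, which go from 0.21 to -0.34 as the signal rises, and the called genes lie below 0 over most of the range and above 0 mainly at its dim end.

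Among the strongest signals both kept and lost transcripts were found. Of the 50 genes with the largest knockout input signal 9 fell (18%, against 5.28% of all genes tested), 0 rose and 31 were kept (62%, against 52.4%), with a median difference of -0.43 against -0.21. The share that fell was 13% among the 100 brightest genes and 6% among the 500 brightest. These ranks use the knockout input, 1 side of the comparison, and in the brightest bin by wild-type input 7.32% fell. Alb, the albumin of plasma, read 14.96, 14.93 and 14.72 in input and 14.43, 14.77 and 14.23 in IP (-0.39 ± 0.20, adjusted p = 0.233). Apoa1, the main apolipoprotein of high-density lipoprotein, read 13.84 to 14 in the 3 inputs and 13.38 to 13.52 in the IPs (-0.46 ± 0.19, adjusted p = 0.155). The Apoa1 groups did not overlap, but the 95% interval of its difference was -0.88 to -0.03, within 2-fold. The other kept genes with the largest signals were the keratins Krt8 and Krt18, the haem carrier Hpx, the selenium carrier Selenop, the extracellular chaperone Clu, the cornified envelope protein Sprr1a, the siderophore binder Lcn2 and the retinol carrier Rbp4, with differences of -0.50 to -0.12. With an intensity trend in limma's variance model, Alb, Apoa1, Hpx, Krt8, Krt18 and Sprr1a were called lower (adjusted p = 0.019 to 0.0413), their differences being the same. Actb, beta-actin, was kept too (-0.25 ± 0.22), while its control probe sets differed by -0.36 at the 3′ end and by -1.85 at the 5′ end on average, and those of Gapdh by -0.58 and -1.77.

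Among the bright genes that fell, Fth1, the ferritin heavy chain, went from a mean of 14.28 to 13.20 (-1.07 ± 0.21, adjusted p = 0.0321), and Sqstm1, the autophagy receptor p62, from 13.49 to 12.12 (-1.38 ± 0.27, adjusted p = 0.0321). The classical MHC class I genes H2-D1 (-1.10) and H2-K1 (-1.03) fell as well, and as near-identical genes they can share probe signal. Rpl26, Hp, Atp5b, Psmd8, Rps9 and Apoe, each described with its list below, complete the 10 brightest genes that fell. These falls were smaller than those of the 12 genes above.

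To describe classes of transcripts, 44 lists of genes were read against the background of 5.28% lower, 0.727% higher, 52.4% kept and a median of -0.21. No list was tested as a set, and the lists differ in signal level, so the median is also given after subtracting the median of each gene's own level bin.

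In the translation machinery, most tested members of each list were not called. Of 24 cytosolic ribosomal protein genes on the array 19 were tested, and these do not stand for the whole ribosome. Of the 19, 3 fell (15.8%, against 5.28% of all genes tested), 0 rose and 12 were kept, with a median of -0.23 (0.11 relative to the level bins). Those lower were Rps4l (-1.33 ± 0.21, adjusted p = 0.023), Rps9 (-1.0 ± 0.24, adjusted p = 0.0478) and Rpl26 (-0.90 ± 0.19, adjusted p = 0.0394), and ribosomal protein genes have many processed copies that can share probe signal. Of 70 mitochondrial ribosomal protein genes 6 fell and 42 were kept (median -0.31). Mrpl14, of the large mitoribosomal subunit, read 9.88, 10.23 and 8.85 in input and 7.29, 8.58 and 7.48 in IP (-1.87 ± 0.26, adjusted p = 0.0175). Of 56 translation factors 4 fell, among them the release factor Gspt1 (-1.45), the eIF2B subunit Eif2b2 (-1.19) and the helicase Eif4a1 (-1.0). None of 18 cytosolic aminoacyl-tRNA synthetases was called and 13 were kept (median -0.16, but 0.07 after quantile normalization).

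Transcripts of mitochondrial proteins showed the same mixture. Of 67 respiratory chain subunits 2 fell, Atp5b (-1.11 ± 0.26, adjusted p = 0.045) and Ndufb2 (-1.09 ± 0.26, adjusted p = 0.048), and 44 were kept (median -0.33). Of 53 genes of mitochondrial import and metabolite carriers 6 fell (11.3%), and the list had a median of -0.36 (-0.08 relative to the level bins). Tomm40, the channel of the outer membrane translocase, read 10.22, 10.07 and 10.00 in input and 7.53, 7.56 and 8.42 in IP, a fall of 4.81-fold (-2.27 ± 0.32, adjusted p = 0.0177). All 3 IP values of Tomm40 lay well below its lowest input. The citrate carrier Slc25a1 (-1.19), the ornithine carrier Slc25a15 (-1.15), the oxoglutarate carrier Slc25a11 (-1.15) and the translocase subunits Timm17a (-1.14) and Timm50 (-1.08) also fell.

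Among liver metabolism genes the called members were few. Of 24 genes of fatty acid oxidation and ketogenesis 3 fell (12.5%) and 12 were kept. Echs1, the enoyl-CoA hydratase of the mitochondrial cycle, read 10.56, 10.77 and 9.84 in input and 8.58, 9.17 and 8.40 in IP (-1.67 ± 0.22, adjusted p = 0.0168), with no overlap. The bifunctional enzymes Ehhadh of peroxisomes (-1.58 ± 0.27, adjusted p = 0.0249) and Hadha of mitochondria (-1.54 ± 0.27, adjusted p = 0.0256) were lower in all 3 preparations, though their input and IP values overlapped. Of 13 glucose and glycogen enzymes only Pklr, liver pyruvate kinase, fell (-1.85 ± 0.26, adjusted p = 0.0175). None of 20 lipid and cholesterol synthesis genes was called, and the largest differences there, Srebf2 (-1.3) and Insig1 (-1.28), did not pass (adjusted p = 0.0821 and 0.151). Of 31 xenobiotic cytochromes P450 0 fell and 1 rose, Cyp2j11 (1.16), from an input mean of about 5. Of 29 conjugation enzymes 1 fell, the glutathione transferase Gstt3 (-1.22), and of 8 carboxylesterases 0 fell, 1 rose and 6 were kept (median -0.10, but 0.11 after quantile normalization).

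Secreted proteins of the hepatocyte are made on the endoplasmic reticulum. Plasma proteins and serpins had a median of -0.40 over 46 genes, of which 3 fell and 26 were kept, and complement and coagulation factors one of -0.41 over 29 genes, of which 3 fell and 14 were kept. Relative to their level bins these medians were -0.06 and -0.09. F7, coagulation factor VII, read 8.32, 10.18 and 8.83 in input and 7.46, 7.89 and 6.41 in IP (-1.86 ± 0.39, adjusted p = 0.0369). C1ra, the C1r protease of complement, read 8.98, 9.39 and 10.50 in input and 7.99, 7.63 and 8.51 in IP (-1.58 ± 0.28, adjusted p = 0.0257). Both were lower without overlap. C4bp (-0.93), Serpinf1 (-1.03), haptoglobin Hp (-0.93) and vitronectin Vtn (-0.82) fell by about 2-fold. Of 14 apolipoproteins 1 fell, Apoe (-0.97 ± 0.22, adjusted p = 0.0405), and 9 were kept (median -0.13).

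In protein turnover, the list of ubiquitin conjugating enzymes had the lowest median of the 44 lists, -0.51 over 23 genes (-0.24 relative to the level bins, and -0.33 after quantile normalization). Only Ube2e1 of that list was called (-1.17 ± 0.26, adjusted p = 0.0399, limma). Cdc34, another such enzyme that fell, was counted with the cell cycle genes. Of 42 proteasome subunits 2 fell, the activator subunit Psme2 (-1.20) and Psmd8 (-0.85), and 28 were kept. Of 54 chaperones 3 fell, Hspb8 (-1.20), Dnajc22 (-1.18) and Hspa13 (-1.01), and 36 were kept. Of 28 targets of ER stress and ATF4 1 fell, Pdia3 (-1.11). Atf5 of that list read 11.42, 12.03 and 10.75 in input and 10.38, 8.92 and 8.82 in IP without overlap, but its error was large (-2.03 ± 0.53, adjusted p = 0.0552).

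Small GTPases of vesicle traffic and nutrient signalling were a list with a lower median: 9 of 69 fell (13%, against 5.28% of all genes tested) and 1 rose, with a median of -0.42 (-0.19 relative to the level bins). Besides Rraga these were Rab20 (-1.90 ± 0.35, adjusted p = 0.0269), Rab8a (-1.85 ± 0.38, adjusted p = 0.035) and Rab18 (-1.70, adjusted p = 0.0249), then Rab4a (-1.38), Ralb (-1.31), Rab33b (-1.15), Arf1 (-1.13) and Arl15 (-0.87). Rab20, of endosomes and phagosomes, read 8.28, 8.73 and 7.70 in input and 6.23, 6.45 and 6.35 in IP. Rab8a, of exocytic traffic, read 10.21, 10.04 and 9.20 in input and 7.97, 8.09 and 7.83 in IP. After quantile normalization only Rraga of this list was called, and the median was -0.22. Of 31 genes of the vacuolar ATPase and lysosomal hydrolases 2 fell, the cathepsins Ctsf (-1.14) and Ctsd (-0.87), and of 30 actin cytoskeleton genes 2 fell, Arpc4 of the Arp2/3 complex (-1.48) and Capzb of capping protein (-1.19).

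In nuclear RNA processing 7 of 78 splicing factors, hnRNPs and DEAD-box helicases fell (8.97%) and 45 were kept (median -0.32). Besides Snrpd3 these were Hnrnph3 (-1.86), Srsf5 (-1.69), Srsf10 (-1.32), Prpf19 (-1.3), Ddx41 (-1.20) and Ddx46 (-1.07). Srsf5, a serine and arginine-rich splicing regulator, read 10.19, 10.32 and 10.47 in input and 9.03, 8.76 and 8.12 in IP (-1.69 ± 0.36, adjusted p = 0.0364). Of 90 RNA polymerase, general factor and Mediator genes 5 fell, near the background share, and 60 were kept (median -0.16, but 0.01 after quantile normalization). Polr3c of RNA polymerase III, Taf1b of the RNA polymerase I selectivity factor (-2.29 ± 0.25, adjusted p = 0.0111) and Gtf3a, the TFIIIA of 5S rRNA genes (-1.63 ± 0.30, adjusted p = 0.0277), had the largest falls there, followed by Polr2m (-1.05) and Polr2c (-1.04).

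CNOT6L itself belongs to the mRNA decay machinery. Of 14 CCR4-NOT subunits and cofactors 9 were kept, 2 fell and 0 rose, and the median was 0.02 (0.28 after quantile normalization, and -0.05 without preparation 2). Cnot7, a catalytic deadenylase of the complex, read 8.26, 8.00 and 6.81 in input and 5.98, 7.27 and 4.91 in IP (-1.64 ± 0.31, adjusted p = 0.0292). Cnot7 was lower in each preparation, but its IP value in preparation 2 was above the input value in preparation 3. Btg2, an antiproliferative cofactor that binds the deadenylases, was the other (-1.08 ± 0.22, adjusted p = 0.0357). The deadenylases Cnot6 (0.18, adjusted p = 0.728) and Cnot8 (0.16, adjusted p = 0.748) and the subunits Cnot2 (-0.16), Cnot9 (0.17) and Cnot10 (0.41) did not pass.

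Of 44 further mRNA decay factors 4 fell and 29 were kept, with a median of -0.13 (0.13 after quantile normalization). Upf1, the helicase of nonsense-mediated decay, read 8.95, 8.13 and 8.31 in input and 7.46, 5.74 and 7.70 in IP (-1.49 ± 0.31, adjusted p = 0.0357). The exosome genes Exosc3 (-1.39 ± 0.28, adjusted p = 0.0351) and Exosc10 (-1.23, adjusted p = 0.0257) and Lsm8, of the nuclear Lsm ring (-1.36 ± 0.24, adjusted p = 0.0256), fell too. Of 57 RNA-binding regulators 2 fell, Mex3d and the FMR1 relative Fxr2 (-1.39 ± 0.22, adjusted p = 0.0227), and 27 were kept (median -0.10, but 0.02 after quantile normalization).

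Immediate early genes, whose mRNAs are induced within minutes of a stimulus and decay fast, had the largest share of losses among lists of 10 or more genes. Of 43 tested 8 fell (18.6%), 0 rose and 14 were kept, with a median of -0.48 (-0.17 relative to the level bins). Klf5, a zinc finger transcription factor, read 7.71, 7.22 and 8.47 in input and 4.67, 5.27 and 6.73 in IP (-2.24 ± 0.37, adjusted p = 0.0244). Pmaip1, the BH3-only protein Noxa, read 7.82, 7.16 and 7.76 in input and 5.63, 5.51 and 5.63 in IP (-1.99 ± 0.21, adjusted p = 0.0111). The 3 IP values of Pmaip1 were almost equal and all below its inputs. Gadd45a, a stress sensor induced by DNA damage, read 10.49, 10.18 and 10.32 in input and 7.95, 9.24 and 9.40 in IP (-1.47 ± 0.33, adjusted p = 0.0399). Ier2 (-1.19), Ccn1 (-1.12), Jun (-1.10), Btg2 (-1.08) and Klf4 (-1.05) made up the rest. The number called fell to 1 after quantile normalization and to 1, 1 and 0 without preparation 1, 2 or 3, while the median stayed between -0.56 and -0.27 over these fits.

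Other lists rich in regulated, short-lived transcripts had fewer called members. Of 40 genes of the NF-κB pathway and inflammation 2 fell, the chemokines Ccl9 (-1.49) and Ccl20 (-1.03), and 22 were kept (median -0.18). Of 33 p53 and cell death genes 2 fell, Pmaip1 and Bid (-1.20), with a median of -0.44 (-0.13 relative to the level bins). Of 13 circadian clock genes 1 fell, Rora (-1.85 ± 0.41, adjusted p = 0.0399), and 8 were kept (median -0.06, but 0.15 after quantile normalization).

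Other transcription factor lists differed in their medians. Of 239 Zfp genes, most of them zinc finger DNA-binding proteins, 4 fell (1.67%), 3 rose and 121 were kept, with a median of -0.03 (0.05 after quantile normalization, and 0.04 relative to the level bins). Zfp647 (-1.15), Zfp688 (-1.05), Zfp740 (-0.88) and Zfp266 (-0.84) were lower, and Zfp959 (1.13), Zfp618 (1.12) and Zfp703 (1.08) were higher. Of 42 homeobox, forkhead and other developmental factors tested, out of 162 on the array, 3 rose and 1 fell. The forkhead factor Foxf1 of mesenchyme read 5.87, 5.58 and 5.54 in input and 6.98, 6.89 and 6.80 in IP (1.23 ± 0.20, adjusted p = 0.0244). Pou3f4 (1.16) and Foxm1 (1.04) were also higher and Foxk2 lower (-1.17). The median of that list was 0.32, or 0.25 relative to its level bins, and -0.18 when only the brighter genes above the 60th percentile were tested. Over all its members on the array it was 0.58, against 0.12 over all named genes. Of 37 nuclear receptors and liver transcription factors 1 fell, the retinoic acid receptor Rara (-1.09), and 1 rose, Nr2c2 (0.82) (median -0.18, but 0.02 after quantile normalization).

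Genes of other tissues, most of them dim in these cells, were seldom tested. Of 203 genes of neuronal channels and neurotransmitter receptors on the array 23 passed the level filter, of 103 keratins and skin genes 23, of 102 testis and germ-cell genes 20, and of 73 olfactory, vomeronasal and taste receptors 2. Since a gene that is high only in IP can pass that filter, these tested members stand for no list as a whole. Their medians were 0.36, 0.27, 0.06 and 0.69, and over all members on the array 0.59, 0.52, 0.54 and 0.71. With no filter the median of all 15780 named genes was 0.12, and that of the 6284 genes below the filter was 0.57. Among the tested members of these tissue lists Lce1h, the potassium channel Kcna7 (1.06), the sperm calcium channel Catsper1 (0.83) and the sweet taste receptor Tas1r2 (0.99) rose. Pcdh1 (-1.24) and Kcnk5 (-0.91) of the same lists fell. Of membrane and matrix genes, 5 of 162 solute carriers fell and 2 rose (median -0.10, but 0.07 after quantile normalization), and 0 of 30 ABC transporters and 0 of 32 collagens, matrix proteins and metalloproteases were called (medians -0.30 and -0.08). Over all members on the array the medians were 0.24 for solute carriers, -0.21 for ABC transporters and 0.45 for the collagen and matrix list. Of 53 cell cycle genes 2 fell, the transcription elongation kinase Cdk9 (-1.64) and the ubiquitin conjugating enzyme Cdc34 (-1.36). None of 9 histone genes and none of 7 long non-coding RNAs was called (medians 0.02 and 0.01).

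**Figure D3:**
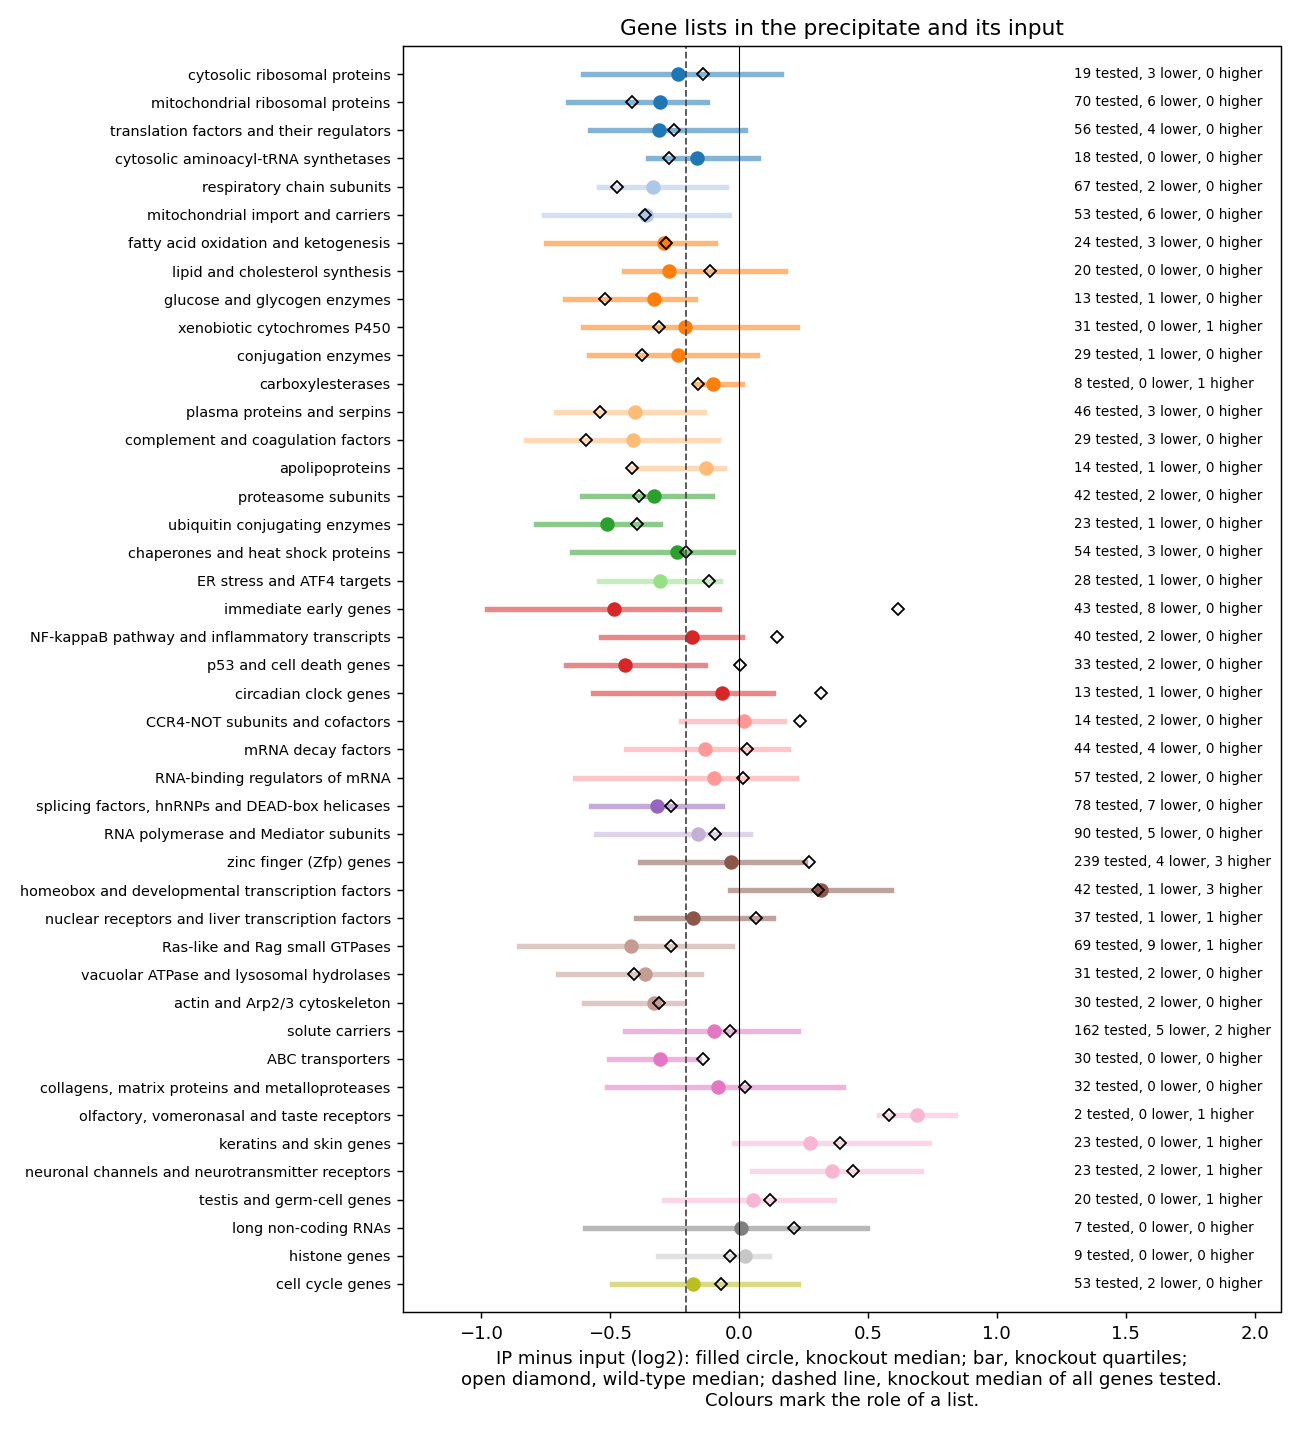
Filled circles give the median knockout IP minus input difference (log2) of the tested genes of each of 44 lists, bars their quartiles and open diamonds the median in wild type, with the numbers tested and called in knockout at the right. Most medians lie between -0.51 and 0.03 around the dashed line at -0.21, immediate early genes are at -0.48 in knockout and 0.62 in wild type, and after quantile normalization the knockout medians of RNA polymerase, RNA-binding, carboxylesterase, clock, aminoacyl-tRNA synthetase, mRNA decay, nuclear receptor, solute carrier and Zfp lists turn positive (0.01 to 0.15).

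The cells were checked against markers. Of 8 hepatocyte markers 6 were on the array under these names, all 6 were tested, 0 were called and 5 were kept, and the log2 of their summed signal was 15.73 to 16.03 in the knockout inputs and 15.29 to 15.82 in the IPs, a sum carried by Alb, Apoa1 and Ttr. Hnf4a read 7.53 and 7.60 and Tat 5.61 and 5.77 in the input and IP of preparation 3, below the input and IP of the other preparations. Of 8 Kupffer cell and macrophage markers 2 passed the level filter, and Cd68 fell from 12.27, 11.89 and 11.52 to between 10.71 and 11 (-1.02 ± 0.20, adjusted p = 0.0304), while Clec4f, Marco, Cd5l and Vsig4 averaged 3.80 to 5.10 in input. The other tested one, Csf1r, differed by 0.42 (adjusted p = 0.251), and the 6 below the filter by -0.16 (Lyz2) to 0.91 (Adgre1), 5 of them upward. The summed stellate cell and fibroblast signal ranged from 7.86 to 10.94 in the inputs and from 7.88 to 10.69 in the IPs. It was set by preparation 3, where Col3a1 read 9.98 in input and 9.93 in IP against 4.68 to 5.21 on the other knockout arrays, and the hepatocyte enzyme Cyp2e1 was lowest there too (8.59 in input, 8.24 in IP). More cells of a type and more RNA per cell cannot be told apart, and in preparation 3 the stellate sum differed by -0.25 between IP and input. The endothelial, cholangiocyte, erythroid, lymphocyte and neutrophil sums were 4.72 to 9.13 in the inputs and 4.62 to 9.23 in the IPs, with 0 markers called.

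The same genes were then read in wild type, where the precipitate holds CNOT6L. There, 438 genes (4.61%) were lower in IP and 229 (2.41%) higher, and of the lower genes 254 were shared, 50.7% of the knockout list and 58.0% of the wild-type list. Of the higher genes 13 were shared, 18.8% of the knockout list and 5.68% of the wild-type list. Of the 501 genes lower in knockout, 482 had a negative difference in wild type, with a median of -0.97 against -1.22 in knockout. Of the 69 higher, 65 had a positive one, with a median of 0.65 against 1.09. The wild-type median of all genes tested was -0.11, and that of the dimmest bin, which held 58 of the 69, was 0.24. The level filter also used the wild-type IP arrays. These counts are therefore not read as a trait of the called genes. Among the 12 most lost genes 11 were called lower in wild type too, for example Snrpd3 (-2.63), Net1 (-2.49), Rraga (-2.27) and Mta2 (-2.69), and among the 12 higher genes 4 were called, Tsks, Tmod1, Rasal1 and Slc1a7. The calls in both genotypes use 1 estimate of the spread per gene, from all 12 arrays, so they are not independent of each other.

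**Figure D4:**
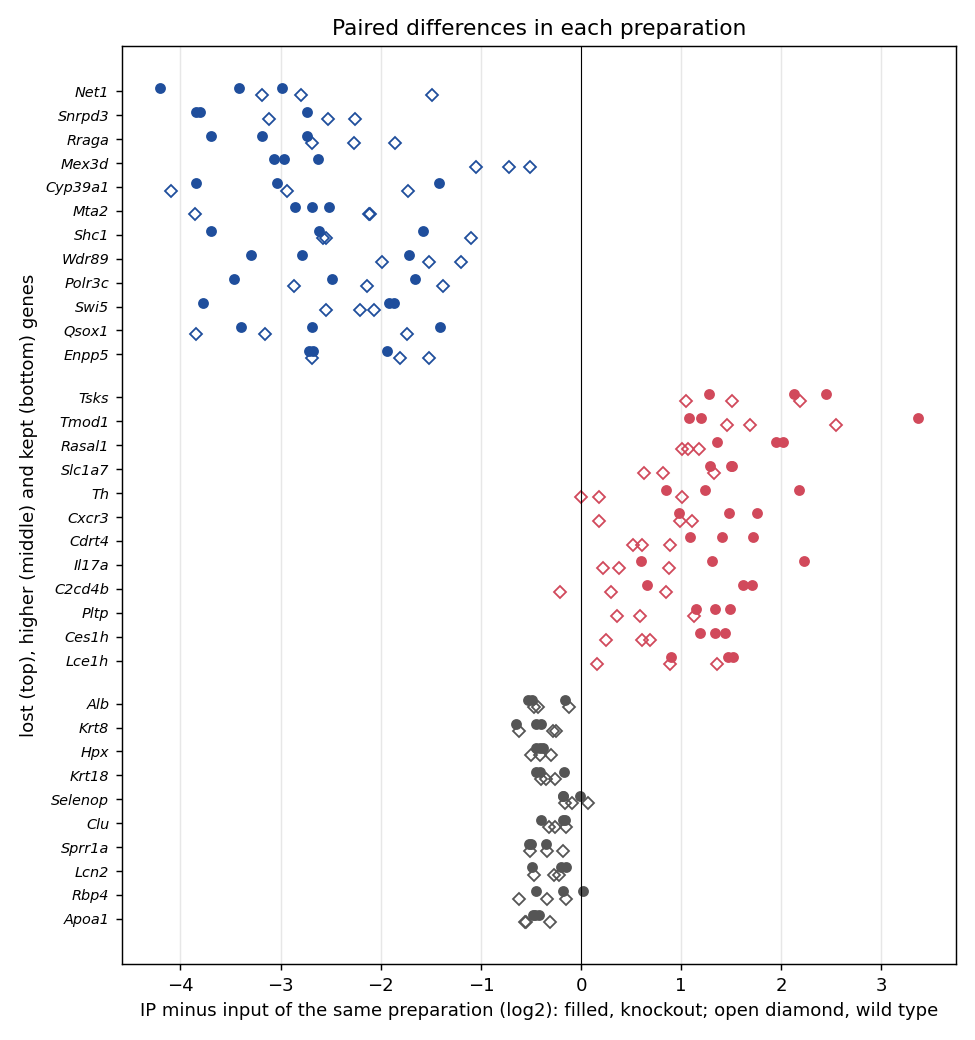
Each point is the IP minus input difference (log2) of 1 preparation for the 12 lost, 12 higher and 10 kept genes, filled for knockout and open diamonds for wild type. For the lost genes all 6 preparations lie below 0, with Mex3d set apart by wild-type values of -1.05 to -0.51 against -3.07 to -2.63 in knockout, and for the kept genes every point lies between -0.65 and 0.07.

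The test of the difference between the genotypes, the interaction in the same limma fit, called 2 of 9496 genes (0.0211%), Tec and Adamts1, and 0 of the 570 genes (6%) called in the knockout in either direction. Inputs of the same replicate number correlated by 0.983 to 0.990 between the genotypes and inputs of different numbers by 0.862 to 0.950, for which the labels give no reason. With the replicate number as a block shared by both genotypes, 27 interactions passed. At an unadjusted p under 0.05, 108 of those 570 (18.9%) differed against 6.16% of all genes, but the knockout arrays enter both the choice and this test. The smallest p-values belonged to Btg2, Mex3d and Ccn1, all with an adjusted p of 0.065. Btg2 differed by -1.08 in knockout and 1.26 in wild type, where it rose in the IP (adjusted p = 0.0221), and Ccn1, a matricellular protein, by -1.12 and 1.20 (adjusted p = 0.0245 in wild type). They were the only 2 genes called lower in knockout and called higher in wild type. Mex3d differed by -2.89 and -0.76 (adjusted p = 0.0599 in wild type).

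Inhbe, the inhibin βE chain made by hepatocytes, read 7.55, 7.73 and 7.72 in knockout input and 6.16, 4.94 and 4.88 in knockout IP (-2.34), with a wild-type difference of -0.02 (interaction adjusted p = 0.161). Ddit4, an mTORC1 inhibitor induced by stress, differed by -1.69 in knockout and 1.23 in wild type (interaction adjusted p = 0.169). In the other direction Loxl2, a lysyl oxidase of the matrix, fell by 1.22 in knockout and by 2.92 in wild type (interaction adjusted p = 0.212). Foxf1, Allc, Sh2d2a and Cyp26b1 rose in knockout (0.88 to 1.23) and had wild-type differences of -0.16 to 0.05 (interaction adjusted p = 0.251 to 0.407). None of these interactions passed, which does not show that the genotypes were alike.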

How the data were processed

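Input and anti-CNOT6L IP RNA of primary hepatocytes were hybridised to Affymetrix whole-genome mouse arrays after labelling of 10 µg total RNA, per the labels. The deposited values, 1 per probe set and array, are on a log2 scale as the authors left them, as their range shows; their background correction, normalization and summarisation were not given in the sources used here, and no scanner files were used. Of 16539 probe sets, 64 were controls and 695 had no gene symbol; 15780 named 1 gene each, of which 15752 matched RefSeq. Genes with a mean over the 12 arrays under the 40th percentile (5.57) were left out of the tests, so a gene high only in IP could pass.

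limma 3.58.1 (R 4.3.3) was fitted to all 12 arrays with a separate IP effect in each genotype and the preparation (genotype and replicate number) as a block, which pairs each IP with the input of its own cells as the series text describes. Deviations from the group means correlated by 0.507 to 0.720 between arrays with the same number and by -0.525 to 0.00389 otherwise. Tests were two-sided moderated tests, adjusted by Benjamini-Hochberg over 9496 genes, with 0.05 as threshold, and the steps were tested on simulated data. The number of arrays limits the precision, with a median standard error of 0.25.

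The comparison and the 44 lists were chosen with earlier results of these data known, and some list patterns were tidied after values were seen. Named genes were the 12 called per direction with the largest difference, without overlap and with 1 sign in all pairs, the 10 brightest kept genes, up to 3 members per list, up to 5 per direction by the interaction, and Cnot6l, Alb, Actb and Gapdh; clone names were only counted. Further called members of lists were named after their values were seen. The alternatives changed the pairing, the arrays fitted, the normalization, the filter and the variance model, and left out each preparation.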

Additional observations from a re-analysis of the deposited data

Results flagged for a closer look

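In 3 of the 44 lists the median IP minus input difference was negative in all 3 knockout preparations and positive in all 3 wild-type preparations. The difference between the genotypes was not tested for any list. Immediate early genes had a median of -0.48 in knockout (-0.65, -0.42 and -0.38 by preparation) and 0.62 in wild type (0.69, 0.82 and 0.64). Among their members, Socs3, a feedback inhibitor of cytokine signalling, differed by 0.59 in knockout and 2.80 in wild type, the mRNA decay factor Zfp36 by -0.93 and 2.55, Fos by -0.25 and 2.35, and the kinase Plk3 by 0.03 and 2.1. In wild type 13 of the 43 tested were called higher and 1 lower, against 0 higher and 8 lower in knockout. Over all 9496 genes tested, 2.41% were higher and 4.61% lower in wild type, and 0.727% higher and 5.28% lower in knockout. The 1 lower gene in wild type and the 0 higher genes in knockout are near those shares. Genes of the NF-κB pathway and inflammation had medians of -0.18 and 0.15, and nuclear receptors and liver transcription factors -0.18 and 0.068. The nuclear receptor median in knockout was 0.02 after quantile normalization.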

How the results depend on the processing

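The counts of called genes depend on the settings. Of the genes the naming rule took, the histone gene H4c9, called in no fit, changed sign (-0.55 without knockout preparation 1, up to 1.27 otherwise); several alternatives cannot move a difference, so constant signs say little. Without the replicate block, that is, without pairing IP and input, 0 genes were lower and 0 higher in knockout, 2156 kept, 0 lower and 10 higher in wild type, and 1 passed the interaction. A block by replicate number shared by both genotypes gave 897 lower and 176 higher in knockout, 746 and 362 in wild type, and 27 in the interaction. The knockout arrays alone gave 8 and 0. Quantile normalization gave 30 and 3 in knockout, 159 lower in wild type and 1 in the interaction. With no filter 1073 were higher in knockout, 245 lower in wild type and 1 passed the interaction. The 60th percentile filter gave 17 higher and 8 in the interaction, and an intensity trend 672 lower in wild type and 17 in the interaction. Leaving out 1 preparation gave 6 to 345 lower, 0 to 34 higher and 3142 to 4913 kept in knockout, 0 to 633 lower and 1 to 305 higher in wild type, and 0 to 6 in the interaction. Without knockout preparation 1, 2 or 3, 79, 6 and 9 genes were lower. The cause of these shifts was not tested, and some of the alternatives also used fewer arrays or tested other genes. Medians of 9 lists turned positive under quantile normalization. List medians relative to the level bins, and those without knockout preparation 2, were chosen after seeing the data. The description by protein length was not run, since no protein table was used here. The 2 tested receptors of smell and taste gave no median under the 60th percentile filter.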

Other observations

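The 6284 named genes below the level set for testing had a median knockout difference of 0.57, and 91.0% of them were positive. Fitted with no filter, 950 of them (15.1%) were called higher and 16 lower by limma.

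By RefSeq gene type, 0 of 46 long non-coding RNA genes tested were called, 20 were kept and their median difference was 0.10. Of all genes tested 6% were called and 52.4% kept, and 46 genes are too few to set a count of 0 apart from that share. Their median input signal lay within the range of the dimmest level bin, where the median difference was 0.21 and 0.842% of genes were lower. A difference between gene types was not tested. Of 32 pseudogenes 2 were lower (median -0.09), and of 9388 protein-coding genes 498 were lower and 68 higher.

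The 18S rRNA control probe set at the 3′ end did not move in 1 direction. It read 7.23, 12.88 and 11.65 in the knockout inputs and 11.55, 10.67 and 10.89 in the IPs, differences of 4.32, -2.21 and -0.76. In the wild-type preparations of the same numbers the differences were 5.27, -2.34 and -0.80.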
